A study of Mus musculus with 3 samples.

Results

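Collagen chain genes were examined in whole mouse embryos that carried or lacked the small Maf transcription factor MafG. A gene was a member when its current symbol, reached through the accession of its probe, was Col, a number, the letter a and a number. The RefSeq gene table held 44 such genes, 38 of them had a matched probe, and 34 were above background on at least 1 array, out of 13184 genes measured in all. The study holds 3 groups with 1 array each: E10.5 embryos of the genotype MafF-/-, MafG-/-, MafK-/- (triple null E10.5), E10.5 embryos of the genotype MafF-/-, MafG+/+, MafK-/- (MafG-intact E10.5), and E9.5 embryos of that same MafG-intact genotype (MafG-intact E9.5). All 3 groups therefore lacked MafF and MafK, were on a mixed genetic background, and differed between the E10.5 groups only in the MafG genotype by their labels. Each array was hybridised with Cy3-labelled material made from 500 ng of total RNA of a pool of 3 whole embryos. With 1 pool for each group there was no spread between embryos, so no p-value is given, and each difference describes these 3 arrays.

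Collagens are extracellular proteins built from chains that wind around each other in a triple helix. Fibrillar collagens assemble into the banded fibrils of skin, bone, tendon and cartilage; basement membrane collagens form or anchor the sheets beneath epithelia and around vessels; the remaining chains decorate fibrils, build beaded filaments and hexagonal networks, or span the cell membrane. In embryos of these stages, most fibrillar collagen RNA comes from mesenchyme, whereas type IV collagen RNA is made by endothelium, by epithelia and by the parietal endoderm of the yolk sac. Small Maf proteins bind DNA as dimers, alone or with CNC and BACH proteins, at Maf recognition elements and antioxidant response elements.

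The sequence before the annotated gene start is shown for 4 collagens that represent the patterns described here: Col1a2 and Col3a1, fibrillar chains whose signal was lower in triple null embryos; Col8a2, a network chain far lower in triple null embryos; and Col7a1, a basement membrane chain whose signal lay close together on the 3 arrays. The 250 bases that precede the start, 5′ to 3′ on the gene's own strand, were read from RefSeq (GRCm38.p6), where the windows lie at chr6:4505368-4505617 (Col1a2), chr1:45311288-45311537 (Col3a1), chr4:126286544-126286793 (Col8a2) and chr9:108953336-108953585 (Col7a1), all on the plus strand. Capitals mark matches on either strand to the CCAAT box, to the TATA box (TATAAA), to the GC box (GGGCGG) and to the antioxidant response element core (TGACNNNGC).
Col1a2: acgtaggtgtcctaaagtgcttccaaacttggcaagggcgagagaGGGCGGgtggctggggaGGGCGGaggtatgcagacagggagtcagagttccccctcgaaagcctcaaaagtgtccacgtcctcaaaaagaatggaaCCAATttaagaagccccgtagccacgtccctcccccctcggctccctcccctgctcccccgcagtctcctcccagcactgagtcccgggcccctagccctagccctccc
Col3a1: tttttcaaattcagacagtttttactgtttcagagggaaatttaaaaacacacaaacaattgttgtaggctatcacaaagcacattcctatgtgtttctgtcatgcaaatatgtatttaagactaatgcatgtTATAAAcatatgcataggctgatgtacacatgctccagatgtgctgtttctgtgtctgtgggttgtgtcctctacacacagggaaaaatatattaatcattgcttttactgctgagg
Col8a2: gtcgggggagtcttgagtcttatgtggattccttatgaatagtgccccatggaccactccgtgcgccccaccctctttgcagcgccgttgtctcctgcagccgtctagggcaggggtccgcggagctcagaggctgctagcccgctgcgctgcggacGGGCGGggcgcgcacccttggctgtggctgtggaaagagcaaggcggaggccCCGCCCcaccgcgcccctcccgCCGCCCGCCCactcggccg
Col7a1: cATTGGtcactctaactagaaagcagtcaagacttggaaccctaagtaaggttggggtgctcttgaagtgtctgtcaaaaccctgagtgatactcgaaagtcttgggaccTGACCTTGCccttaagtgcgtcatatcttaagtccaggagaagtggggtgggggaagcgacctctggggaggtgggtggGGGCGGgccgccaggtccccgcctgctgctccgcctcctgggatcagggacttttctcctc

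Promoter windows of 300 bases (250 before the start and 50 after it) were available for 35 of the 44 collagen genes and for 27025 genes in all. Both strands were searched. The full Maf recognition element was found in 0 of the 35 collagen genes and in 2 of all genes. Its core TGANTCA, which the full element contains, occurred in 1 collagen gene (Col6a1, 2.86%), against 8.97% of all genes. The antioxidant response element core TGACNNNGC, which overlaps the full element where its central base is C, occurred in 7 collagen genes (20%), against 14.0% of all genes: Col4a2, Col6a2, Col6a5, Col7a1, Col9a2, Col13a1 and Col24a1. The GC box GGGCGG occurred in 22 collagen genes (62.9%), against 38.2% of all genes, the CCAAT box in 13 (37.1% against 41.1%) and TATAAA in 5 (14.3% against 15.7%). These matches are descriptions of letters in a window and are not evidence of binding.

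Values are the scanner's processed signal on the log2 scale minus the 75th percentile of the same array, so that 0 is the 75th percentile. The 75th percentile stood at 1078 signal units for triple null E10.5, 1420 for MafG-intact E10.5 and 1064 for MafG-intact E9.5, and 69.1% to 70.4% of probes were above background, with no saturated spot. Repeat spots of a probe on 1 array had a median SD of 0.0558 to 0.0690 on the log2 scale. The error given after a difference is the scanner software's spot error carried through to the difference, which covers the spot and not the embryos. Mafg signal in triple null embryos did not clear background and was at least 173-fold lower than in MafG-intact E10.5 embryos, as the genotype label has it; the position of the Maff and Mafk probes relative to the deleted segments is not given in the sources used here, so they check nothing. The sex-linked transcripts split the pools: Uty, Kdm5d, Eif2s3y and Ddx3y, all Y-linked, were detected in the triple null pool and in the E9.5 pool, and Xist was detected in neither of these but in the MafG-intact E10.5 pool. The MafG-intact E10.5 pool therefore differed in sex from the triple null and E9.5 pools, which matched each other in these transcripts. In both comparisons that use the MafG-intact E10.5 pool, sex cannot be told apart from genotype or stage. All of the 10 lists of cell type markers were represented in these whole embryos, with 7 to 15 members of each above background.

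Setting triple null against MafG-intact embryos of the same stage gives the difference that goes with MafG genotype in embryos without MafF and MafK. Most collagen chains outside the basement membrane class had less signal in triple null embryos. Of the 34 collagens, 25 were lower and 9 higher in triple null E10.5 embryos, and 41.6% of all 12529 genes above background on both arrays were lower. The median log2 difference was -0.44 over collagens, -0.43 over the 11 fibrillar chains, 0.09 over the 8 basement membrane chains and -0.61 over the 15 other chains, beside 0.06 over all genes. At least 2-fold lower were 3 collagens, Col19a1, Col8a2 and Col25a1 (4.47% of all genes were), and 0 were at least 2-fold higher (0.982% of all genes). Col25a1 entered this count through a probe that did not clear background in triple null embryos. When each comparison used only probes above background on both of its arrays, an alternative added after seeing the data, 2 collagens were at least 2-fold lower, Col19a1 and Col8a2 (4.42% of all genes), and 0 were higher (0.942%). At 1.5-fold, 12 were lower (9.72% of all genes) and 1 was higher (4.12%). In whole embryos, fewer cells of a type and less RNA per cell cannot be told apart. With normexp background correction, which adds an offset that draws dim probes together, the median over all collagens was -0.15 and the 2-fold lower count was 1, Col8a2.

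**Figure D1:**
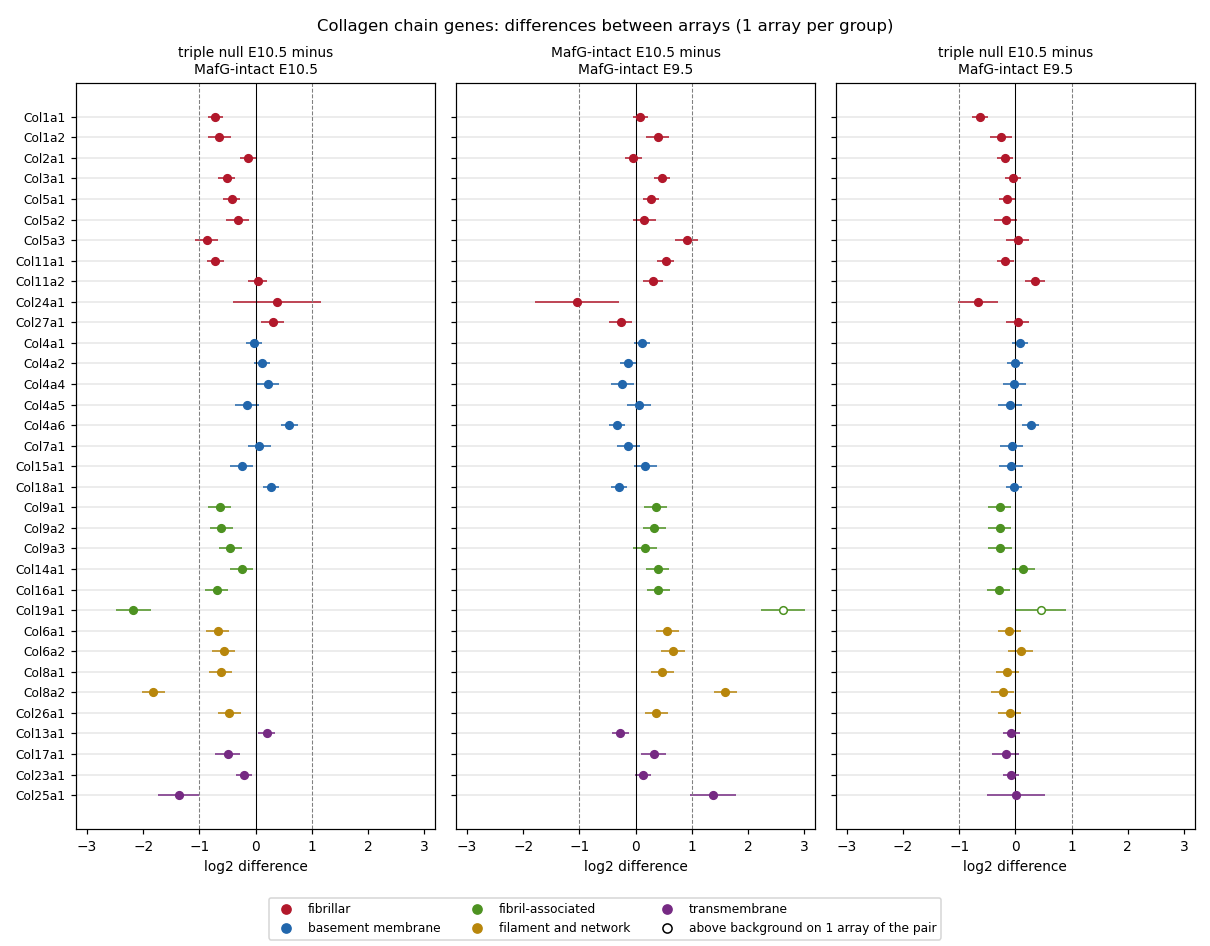
Log2 difference of each of the 34 collagen chain genes (rows, coloured by class) in 3 comparisons of 1 array against 1 array; bars are the scanner's spot error, dashed lines mark 2-fold and open circles mark genes above background on 1 array of the pair. Col19a1, Col8a2 and Col25a1 lie beyond 2-fold on the lower side in triple null against MafG-intact E10.5 embryos, and the basement membrane chains lie between -0.25 and 0.60.

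Of the 11 fibrillar genes, 8 were lower in triple null than in MafG-intact E10.5 embryos (41.6% of all genes were). Col1a2 encodes the partner chain of type I collagen, the main collagen of bone, skin and tendon, and its level was 4.29 in triple null E10.5 embryos, against 4.94 in MafG-intact E10.5 and 4.54 in MafG-intact E9.5 embryos. The triple null level was thus the lowest of the 3, with log2 differences of -0.65 ± 0.20 from MafG-intact E10.5 and -0.25 from MafG-intact E9.5. Col1a1, which encodes the other type I chain, had 3 probes that differed in brightness and whose mean level was -1.33 in triple null E10.5, -0.61 in MafG-intact E10.5 and -0.70 in MafG-intact E9.5 embryos. It was 1.64-fold lower in triple null than in MafG-intact E10.5 embryos and 1.55-fold lower than in MafG-intact E9.5 embryos. Col1a1 was thus lower in triple null embryos than in MafG-intact embryos of either stage, whereas the MafG-intact stages differed by 0.09 ± 0.13.

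The brightest Col1a1 probe was printed in 10 spots on each array, which gives a measure of scanner noise for this gene. Its mean level was 2.34 ± 0.046 (SD between 10 spots) in triple null E10.5, against 3.30 ± 0.040 in MafG-intact E10.5 and 2.99 ± 0.075 in MafG-intact E9.5 embryos. The gaps between arrays were thus several times the SD between spots, which says nothing of the spread between embryos. The remaining Col1a1 probes read -0.48 and -5.85 in triple null E10.5, against 0.12 and -5.26 in MafG-intact E10.5 and 0.08 and -5.18 in MafG-intact E9.5 embryos. All 3 probes therefore placed the triple null array lowest.

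Col2a1 encodes the type II collagen of cartilage and notochord sheath and stood nearly level across the arrays. Its level was 2.82 in triple null E10.5, against 2.97 in MafG-intact E10.5 and 3.00 in MafG-intact E9.5 embryos, a log2 difference of -0.14 between the E10.5 groups. A Col2a1 probe with 10 spots on the array read 2.80 ± 0.052 in triple null E10.5 (SD, 10 spots), 2.96 ± 0.038 in MafG-intact E10.5 and 2.92 ± 0.036 in MafG-intact E9.5 embryos (9 spots each). Col11a2, which encodes a chain of the type XI collagen found in cartilage fibrils with type II, was likewise close between the E10.5 groups, with levels of -4.07 in triple null and -4.11 in MafG-intact embryos. Its partner Col11a1 was not: its level was -1.89 in triple null E10.5, against -1.17 in MafG-intact E10.5 and -1.71 in MafG-intact E9.5 embryos, and both of its probes were lower in triple null than in MafG-intact E10.5 embryos, by -0.66 and -0.78 on the log2 scale. The triple null array was thus the lowest of the 3 for Col11a1 and the MafG-intact E10.5 array the highest.

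Col3a1, which encodes the type III collagen of skin and vessel walls, read 0.33 in triple null E10.5, against 0.85 in MafG-intact E10.5 and 0.38 in MafG-intact E9.5 embryos. The MafG-intact E10.5 array was high, and the triple null array stood beside the younger embryos, with log2 differences of -0.52 ± 0.15 and -0.04. Its 2 probes, far apart in brightness, each differed by -0.52 between the E10.5 groups. The type V chains, which set the width of type I fibrils, were likewise highest in MafG-intact E10.5 embryos. Col5a1 read -1.13 in triple null E10.5, against -0.71 in MafG-intact E10.5 and -0.99 in MafG-intact E9.5 embryos. Col5a2 read 0.44, against 0.76 and 0.61, in the same order of groups. Col5a3 read -3.44 in triple null E10.5, against -2.57 in MafG-intact E10.5 and -3.48 in MafG-intact E9.5 embryos. Col5a3 was 1.83-fold lower (-0.87 ± 0.21) in triple null than in MafG-intact E10.5 embryos, the widest gap among the fibrillar genes, and lay within 0.04 of the E9.5 level.

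Of the minor fibrillar genes Col24a1 and Col27a1, Col27a1 did not share this order, and Col24a1 did so with 1 of its 2 probes. Col27a1, which is known from cartilage, read -2.98 in triple null E10.5, against -3.29 in MafG-intact E10.5 and -3.03 in MafG-intact E9.5 embryos, so the MafG-intact E10.5 array was the lowest. The probes of Col24a1 disagreed. The probe above background on all 3 arrays read -3.69 in triple null E10.5, against -3.08 in MafG-intact E10.5 and -3.49 in MafG-intact E9.5 embryos, which is the order of most fibrillar chains. The other read -7.90, -9.27 and -6.77 in the same order of groups and was above background on the E9.5 array alone. The mean for Col24a1, 0.38 higher in triple null than in MafG-intact E10.5 embryos, with a spot error of 0.79, thus carries the sign of a probe near the floor.

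**Figure D2:**
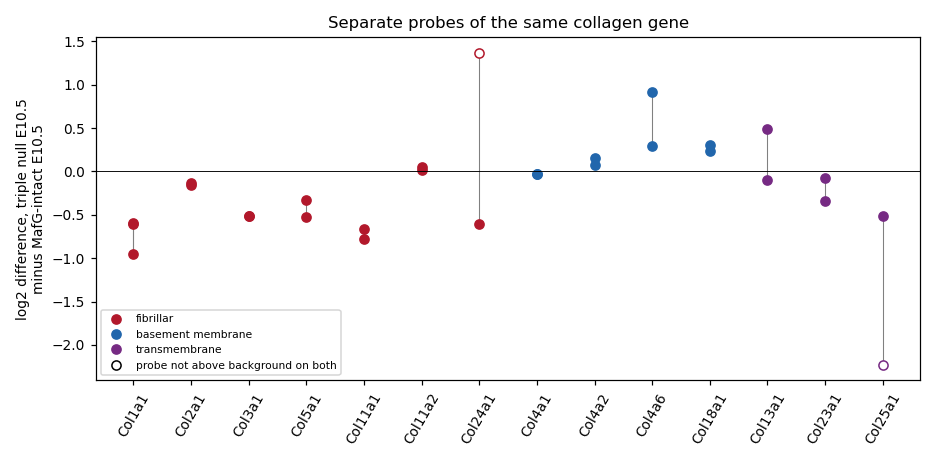
Log2 difference, triple null E10.5 minus MafG-intact E10.5, of each separate probe (circles, joined by a line within a gene) of the 14 collagen genes with more than 1 probe used; open circles mark probes not above background on both arrays. All probes of 12 of the 14 genes lie on the same side of 0, the exceptions being Col24a1 and Col13a1.

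The basement membrane chains stood apart from the other collagen classes in median (0.09 between the E10.5 groups), with a range of -0.25 to 0.60. In triple null embryos 3 of 8 were lower and 5 higher than in MafG-intact E10.5 embryos. That was near the shares of all genes, 41.6% lower and 58.4% higher. Col4a1 and Col4a2 encode the pair of type IV chains present in nearly every basement membrane. Their genes lie head to head on chromosome 8, with RefSeq starts 21 bases apart on opposite strands. Col4a1 read 1.75 in triple null E10.5, against 1.78 in MafG-intact E10.5 and 1.66 in MafG-intact E9.5 embryos. Col4a2 read 0.76, against 0.64 and 0.77, in the same order of groups. The differences of these genes over the 3 comparisons lay between -0.13 and 0.12 on the log2 scale, and both Col4a1 probes differed by -0.03 between the E10.5 groups. Col18a1, whose protein yields endostatin, read 4.08 in triple null E10.5, against 3.80 in MafG-intact E10.5 and 4.10 in MafG-intact E9.5 embryos. The MafG-intact E10.5 array was the lowest of the 3 here with both probes: triple null E10.5 was higher than it by 0.27 ± 0.14, and its own difference from the E9.5 array was -0.29 ± 0.14.

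The type IV chains of restricted tissues were measured as well. Col4a6, an X-linked gene whose chain lies in basement membranes of smooth muscle and some epithelia, read -2.75 in triple null E10.5, against -3.35 in MafG-intact E10.5 and -3.02 in MafG-intact E9.5 embryos. At 1.52-fold higher in triple null than in MafG-intact E10.5 embryos (0.60 ± 0.15) it was the collagen farthest apart on the higher side, though its 2 probes differed, at 0.91 and 0.29 on the log2 scale. Its X-linked neighbour Col4a5, whose start lies 1343 bases away on the opposite strand, read -3.73 in triple null E10.5, against -3.57 in MafG-intact E10.5 and -3.64 in MafG-intact E9.5 embryos, and so did not share that difference. Col4a4, which encodes a chain of the mature glomerular basement membrane, read -1.03, -1.25 and -1.01 in the same order of groups, and its neighbour Col4a3 was not above background on any array. Col7a1, which encodes the anchoring fibril collagen beneath skin epithelium, read 0.05 in triple null E10.5, against -0.02 in MafG-intact E10.5 and 0.12 in MafG-intact E9.5 embryos. Col15a1, a relative of Col18a1 that links basement membranes to the matrix beneath, read -3.03, -2.78 and -2.95 in the same order. The medians of this class over the 3 comparisons lay between -0.13 and 0.09.

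**Figure D3:**
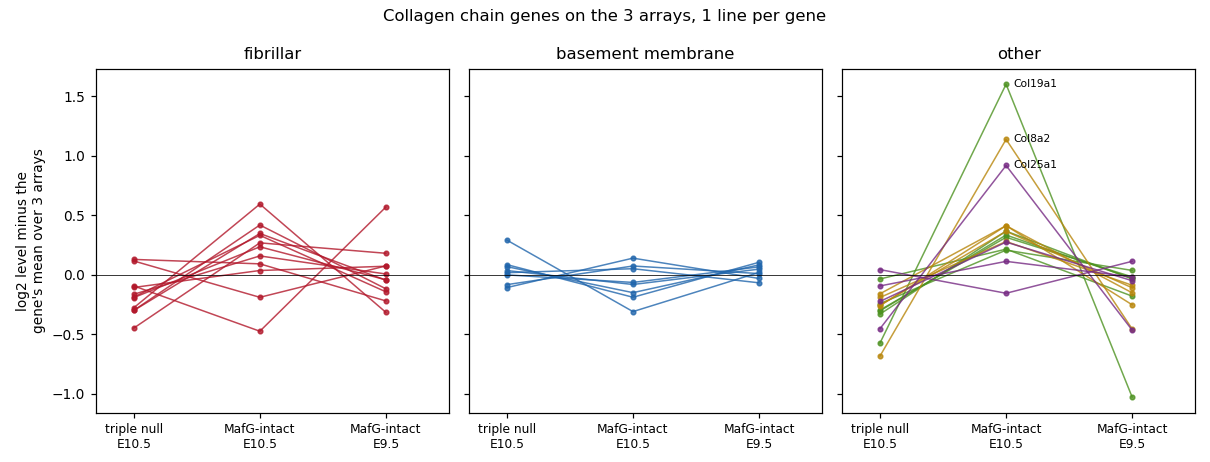
Log2 level of each collagen gene on the 3 arrays (triple null E10.5, MafG-intact E10.5, MafG-intact E9.5) minus its own mean over the arrays, 1 line per gene, in panels for fibrillar, basement membrane and other chains. The MafG-intact E10.5 array holds the highest value for 7 of 11 fibrillar, 3 of 8 basement membrane and 13 of 14 other chains above background on all 3 arrays (34.3% of all genes). Col19a1 is drawn too but was not above background at E9.5.

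Among the fibril-associated collagens, which bind to the surface of fibrils, all 6 measured genes were lower in triple null than in MafG-intact E10.5 embryos (41.6% of all genes). The 3 chains of type IX collagen, which coats type II fibrils in cartilage, lay together. Col9a1 read 0.50 in triple null E10.5, against 1.14 in MafG-intact E10.5 and 0.77 in MafG-intact E9.5 embryos. Col9a2 read -1.52, against -0.91 and -1.24, and Col9a3 read -4.11, against -3.66 and -3.83, in the same order of groups. The type IX genes thus differed by -0.64, -0.61 and -0.45 between the E10.5 groups and were lowest on the triple null array, whereas Col2a1 differed by -0.14. Col16a1, whose chain attaches to several kinds of fibril, read -0.40 in triple null E10.5, against 0.29 in MafG-intact E10.5 and -0.11 in MafG-intact E9.5 embryos. Col14a1, known from tendon and skin, read -1.16, against -0.91 and -1.31. The triple null array was therefore lowest for Col16a1 and lay between the others for Col14a1.

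Col19a1, a fibril-associated chain known from muscle and neurons, had the widest gap of all collagens. Its level was -6.28 in triple null E10.5, against -4.10 in MafG-intact E10.5 and -6.73 in MafG-intact E9.5 embryos, and on the E9.5 array it was not well above background. It was 4.52-fold lower in triple null than in MafG-intact E10.5 embryos, a log2 difference of -2.18 ± 0.31. Set against the E9.5 reading, which did not clear background, the MafG-intact E10.5 level was 6.19-fold higher (log2 difference 2.63 ± 0.39). The triple null level was 1.37-fold higher than that reading (0.45 ± 0.45), a difference about equal to its spot error. All of this rests on 1 dim probe, and with normexp background correction the difference between the E10.5 groups was -0.49. Col9a1 is the neighbour of Col19a1 on chromosome 1 and differed by -0.64.

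The beaded filament and network chains were all lower in triple null than in MafG-intact E10.5 embryos, 5 of 5 (41.6% of all genes). Col8a2 encodes a chain of the hexagonal network of Descemet's membrane in the cornea. Its level was -2.94 in triple null E10.5, against -1.12 in MafG-intact E10.5 and -2.72 in MafG-intact E9.5 embryos. The MafG-intact E10.5 array stood alone. Triple null embryos were 3.53-fold lower than MafG-intact E10.5 embryos (log2 difference -1.82 ± 0.21), MafG-intact E10.5 embryos were 3.02-fold higher than those of E9.5, and triple null E10.5 was 1.17-fold lower than MafG-intact E9.5. Col8a2 rests on 1 probe that was above background on all 3 arrays, so the probe filters and the brightest-probe setting could not change its value. Under every background and scaling setting tried, Col8a2 stayed past 2-fold in both comparisons with MafG-intact E10.5. With normexp the difference between the E10.5 groups was -1.43. The partner chain gene Col8a1 read -1.94 in triple null E10.5, against -1.32 in MafG-intact E10.5 and -1.79 in MafG-intact E9.5 embryos, the same order of arrays with a smaller gap of -0.62 ± 0.20.

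Col6a1 and Col6a2 encode chains of type VI collagen, the beaded filament around many mesenchymal cells, and are neighbours on chromosome 10. Col6a1 read -2.58 in triple null E10.5, against -1.90 in MafG-intact E10.5 and -2.47 in MafG-intact E9.5 embryos. Col6a2 read -3.92, against -3.34 and -4.01. Triple null embryos at E10.5 thus lay near the E9.5 level for both. Col26a1 read 3.14 in triple null E10.5, against 3.61 in MafG-intact E10.5 and 3.24 in MafG-intact E9.5 embryos.

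Transmembrane collagens are carried on the cell surface and can be shed from it. Col25a1 is known from neurons, among other cells, and is needed for motor innervation of muscle in mice. The mean of its 2 probes read -7.10 in triple null E10.5, against -5.73 in MafG-intact E10.5 and -7.11 in MafG-intact E9.5 embryos, a log2 difference of -1.37 ± 0.37 between the E10.5 groups. The probe above background on all 3 arrays read -6.27, -5.75 and -6.12 in that order, a smaller difference of -0.52. The other read -7.93, -5.70 and -8.10 and cleared background only in MafG-intact E10.5 embryos. With normexp background correction the difference between the E10.5 groups was -0.03, so the 2-fold count for Col25a1 depends on a dim probe. Col17a1, the hemidesmosome collagen of epithelia, read -4.76 in triple null E10.5, against -4.26 in MafG-intact E10.5 and -4.59 in MafG-intact E9.5 embryos. Col13a1, which is present at neuromuscular junctions, read -2.21, -2.41 and -2.14, and Col23a1 read -1.90, -1.69 and -1.82, in the same order of groups. Col13a1 was the 1 chain of the 15 outside the fibrillar and basement membrane classes that was higher in triple null than in MafG-intact E10.5 embryos, and its probes disagreed in sign.

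The comparison of MafG-intact embryos at E10.5 with those at E9.5 gives the stage difference without loss of MafG; it uses the same MafG-intact E10.5 array as the comparison above, so any peculiarity of that pool enters both. Collagens above background on both arrays were higher at E10.5 in 24 of 33 cases, against 42.8% of all genes. At least 2-fold higher at E10.5 were 2 collagens, Col8a2 and Col25a1 (4.12% of all genes), with Col19a1 above background at E10.5 alone, and 1 was at least 2-fold lower, Col24a1 (1.07% of all genes). At 1.5-fold, 4 were higher (9.26% of all genes) and 1 was lower (4.33%). The median log2 difference was 0.29 over collagens, 0.28 over fibrillar, -0.13 over basement membrane and 0.39 over the other chains, beside -0.05 over all genes. With normexp background correction the median was 0.08 over all collagens and 0.10 over fibrillar chains. The calls of Col25a1 and Col24a1 rested on probes that were not above background on both arrays. With only probes that were, 1 collagen was at least 2-fold higher, Col8a2 (4.04% of all genes), and 0 were lower (1.01%), and the differences of Col25a1 and Col24a1 were 0.37 and 0.41. Col5a3 (1.88-fold), Col6a2 (log2 difference 0.67), Col6a1 (0.56) and Col11a1 (0.54) were the farthest apart below 2-fold.

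Triple null E10.5 embryos were also set against MafG-intact E9.5 embryos, which are a day younger; this comparison shares an array with each of the others. No collagen was at least 2-fold lower or higher, 0 of 33 in each direction, against 0.527% of all genes lower and 0.256% higher; with 1 array for each group no test was made. The counts were also 0 with only probes above background on both arrays (0.431% of all genes lower and 0.232% higher). At 1.5-fold, 2 were lower, Col1a1 and Col24a1 (1.65% of all genes), and 0 were higher (1.38%). The Col24a1 count rested on a probe that did not clear background in triple null embryos. Its probe above background on all 3 arrays differed by -0.20. The median log2 difference was -0.08 over collagens, -0.17 over fibrillar, -0.02 over basement membrane and -0.11 over the other chains, beside 0.00 over all genes, and 25 of 33 collagens were lower, against 48.5% of all genes. Many of these collagen differences were smaller than their spot error. Of the 14 collagens with more than 1 probe used, 9 had all probes on the same side of 0. Over the 3 arrays together, the highest level fell on the MafG-intact E10.5 array for 23 of the 33 collagens above background on all of them (69.7%), against 34.3% of 12429 genes. It fell on the triple null E10.5 array for 3 collagens (34.5% of all genes) and on the MafG-intact E9.5 array for 7 (31.2%). The lowest level fell on the triple null E10.5 array for 19 of the 33 collagens (24.4% of all genes), on the MafG-intact E10.5 array for 8 (50.2%) and on the MafG-intact E9.5 array for 6 (25.4%).

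Genes for the making of collagen were measured beside the chains. Of the 30 genes for collagen folding, secretion, trimming and crosslinking above background on an array, 2 of 29 above background on both were at least 2-fold lower in triple null than in MafG-intact E10.5 embryos (4.47% of all genes) and 1 was higher (0.982% of all genes), and the list median was 0.10. The lower ones were Lox and Loxl3, which belong to the lysyl oxidases that crosslink collagen outside the cell. Lox read -4.63 in triple null E10.5, against -3.41 in MafG-intact E10.5 and -4.57 in MafG-intact E9.5 embryos, and Loxl3 read -5.11, against -4.08 and -4.87. The family did not move as one: between the E10.5 groups Loxl1 differed by -0.97 and Loxl2 by 0.49. P3h2, a prolyl 3-hydroxylase that acts on type IV collagen, was the higher one, at -2.35 in triple null E10.5, against -3.50 in MafG-intact E10.5 and -2.34 in MafG-intact E9.5 embryos. For Lox and P3h2 the triple null array thus lay within 0.06 of the younger embryos. Between MafG-intact E10.5 and E9.5 embryos the list median was -0.06, with Lox at 1.17 and P3h2 at -1.15 on the log2 scale. Triple null E10.5 and MafG-intact E9.5 embryos had a list median of 0.03, and 0 of the 29 genes were past 2-fold in either direction.

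Collagen receptors, through which cells attach to collagen or sense it, were few on the arrays. Of the 6 above background on both E10.5 arrays, 1 was at least 2-fold lower in triple null than in MafG-intact E10.5 embryos (4.47% of all genes). That gene, Itga11, encodes the integrin by which mesenchymal cells hold type I collagen, and read -1.54 in triple null E10.5, against 0.13 in MafG-intact E10.5 and -1.17 in MafG-intact E9.5 embryos. The receptor median was -0.46 over 7 genes between the E10.5 groups and 0.36 between the MafG-intact stages, and with normexp background correction it was 0.03 and -0.01, so its direction depends on that setting. Of 13 proteins that join type IV collagen in basement membranes, 1 was at least 2-fold lower in triple null than in MafG-intact E10.5 embryos (4.47% of all genes): the muscle laminin chain gene Lama2, at -4.02 in triple null E10.5, against -2.83 in MafG-intact E10.5 and -4.24 in MafG-intact E9.5 embryos. The median of those partners was -0.06 between the E10.5 groups, 0.05 between the MafG-intact stages and 0.01 between triple null E10.5 and MafG-intact E9.5.

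**Figure D4:**
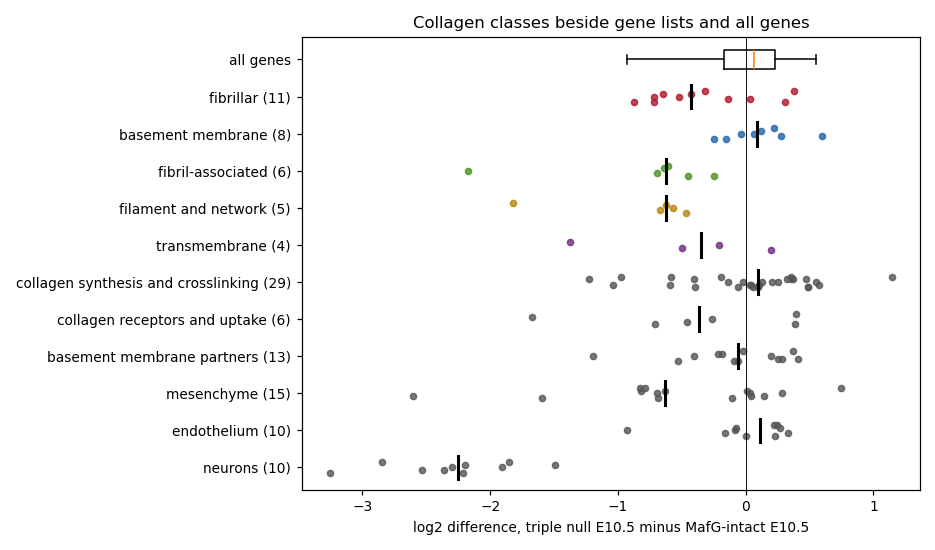
Log2 difference, triple null E10.5 minus MafG-intact E10.5, of single genes (dots) above background on both arrays, by collagen class and by gene list with the number of genes drawn; black bars are medians of the dots, and the box for all 12529 genes gives the median, the quartiles and the 5th and 95th percentiles. The basement membrane dots straddle 0 while those of the other collagen classes lie mostly below it. All 10 neuron markers lie below 0, and their median (-2.25) is farther down than that of any collagen class.

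Among 12 regulators of collagen genes, 2 were at least 2-fold lower in triple null than in MafG-intact E10.5 embryos (4.47% of all genes), and the list median was -0.06. Runx2, the master regulator of bone formation, read -6.19 in triple null E10.5, against -4.36 in MafG-intact E10.5 and -6.87 in MafG-intact E9.5 embryos. Scx, a tendon progenitor factor that activates type I collagen genes, read -0.13, against 1.46 and -0.27, in the same order of groups. Both were highest on the MafG-intact E10.5 array, where Runx2 was still dim. Runx2 was also 1.60-fold higher in triple null E10.5 than in MafG-intact E9.5 embryos (0.68 ± 0.37). Sox9, which activates Col2a1 and the other cartilage collagens, read -0.68 in triple null E10.5, against -0.11 in MafG-intact E10.5 and -0.41 in MafG-intact E9.5 embryos, a log2 difference of -0.57 between the E10.5 groups.

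Markers of the cell types that make collagen, and of others, also differed between the arrays. Of 15 mesenchyme markers, 2 were at least 2-fold lower in triple null than in MafG-intact E10.5 embryos (4.47% of all genes). Those were Ogn (-2.61) and Dcn (-1.60), both small proteoglycans. Of the 15 markers, 9 were lower (41.6% of all genes) and the median was -0.63. Their summed signal, in units of each array's 75th percentile, was 46.9 in triple null E10.5, against 53.8 in MafG-intact E10.5 and 50.7 in MafG-intact E9.5 embryos. The summed signal of the fibrillar collagens was 30.7, 44.0 and 35.9 in the same order of groups, and all 15 mesenchyme markers were above background on every array. Of 8 cartilage condensation markers, 7 were above background on both E10.5 arrays. In triple null embryos 4 of them were lower (41.6% of all genes) and 3 higher (58.4%) than in MafG-intact E10.5 embryos. Cnmd and Comp were at least 2-fold lower in triple null than in MafG-intact E10.5 embryos (4.47% of all genes). Their levels were -5.22 and -5.79 in triple null, against -2.84 and -3.79 in MafG-intact E10.5 embryos. The summed signal of the cartilage list was 2.02 on both E10.5 arrays and 2.18 at E9.5. Of 10 endothelial markers none was past 2-fold in any comparison with both arrays above background. Between the E10.5 groups, 4.47% of all genes were at least 2-fold lower and 0.982% higher. The endothelial median there was 0.11. Their sum was 23.8 in triple null E10.5, 22.7 in MafG-intact E10.5 and 23.2 in MafG-intact E9.5 embryos. The basement membrane collagens summed to 23.8, 20.7 and 23.9 in the same order of groups. Each sum is weighted to its brightest members, and probes of a gene were averaged on the log2 scale before summing. In triple null E10.5 embryos the brightest were Col1a2 (level 4.29) for fibrillar and Col18a1 (4.08) for basement membrane collagens. For mesenchyme markers the brightest was Prrx2 (4.45). The part of the cell types named here in the collagen values was not tested.

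Neuron markers differed more than any collagen class. Every marker of the 10 had less than 0.5 of its MafG-intact E10.5 signal in triple null embryos (median log2 difference -2.25). Of all genes, 4.47% were at least 2-fold lower. The summed signal of the neuron markers was 10.24 in triple null E10.5, against 43.58 in MafG-intact E10.5 and 10.48 in MafG-intact E9.5 embryos. All 10 red cell markers were lower in triple null than in MafG-intact E10.5 embryos (median -1.17), against 41.6% of all genes. Of the red cell markers, 7 were at least 2-fold lower (4.47% of all genes). Their sums were 347, 606 and 411 in the same order of groups. For macrophages and platelets the median was -2.93 over 9 genes. Of the 7 detected on both E10.5 arrays, 6 were past 2-fold on the lower side (4.47% of all genes). Notochord and tail bud markers lay the other way, the median being 0.82 in favour of triple null over MafG-intact E10.5 embryos. At least 2-fold higher were 4 of 9 (0.982% of all genes), and the sums were 54.3, 32.2 and 56.3. Parietal endoderm and trophoblast markers had a median of 0.26 over 7 genes, skin markers -0.36 over 8 and visceral yolk sac endoderm markers -0.42 over 8. The yolk sac markers summed to 4.54 in triple null E10.5, against 5.38 in MafG-intact E10.5 and 9.46 in MafG-intact E9.5 embryos. Whether these lists account for any collagen value was not tested.

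Of the members not given values, Col4a3, Col6a6, Col10a1 and Col28a1 had a matched probe and were not above background on any array. Col6a3, Col6a4, Col6a5, Col12a1, Col20a1 and Col22a1 had no matched probe and are not analysed here. A sum or median over the 34 measured genes is therefore not a statement about all collagens.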

How the data were processed

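Whole-embryo RNA of 3 groups was measured on 1-colour Agilent arrays (design 014868). The authors' deposited files hold intensity values per spot, background-subtracted and processed by Agilent Feature Extraction 9.5.3.1 (protocol GE1-v5_95_Feb07), per the file headers, which name the build mm7; an aligner does not apply. Here, outlier spots were left out, log2 of the processed signal was taken minus each array's 75th percentile over 43379 non-control spots, spots of a probe were averaged, and each gene was given the mean of those of its probes that cleared background on any array. Probe accessions were matched to RefSeq symbols (GRCm38.p6): 22950 of 41170 probes had 1 symbol. A gene was counted past 2-fold only where above background, by any of its probes, on both arrays. Otherwise a bound, or the reading with its spot error, is given. The steps were run on simulated data as a check. All arrays are slide 1, scan 1 in the files; their number limits the precision.

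Every collagen gene could be named; of each other list, those at least 2-fold apart (up to 4 each way, the farthest), or otherwise the 2 farthest, plus Mafg, Xist and 4 Y-linked genes as checks. Sox9, Loxl1, Loxl2 and Prrx2 were named after their values were seen. Members and lists were chosen with earlier results of these data known. Alternatives were normexp (limma 3.58.1, offset 50, R 4.3.3) on the median spot signal and local background, quantile, median and spike-in scaling, other probe filters (1 added after seeing the data), the brightest probe, the deposited value table, folds of 1.5 and 3, and leaving out X-linked members. Python 3.11.15, numpy 2.4.6, pandas 2.3.3 and matplotlib 3.10.9 were used.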

Additional observations from a re-analysis of the deposited data

How the results depend on the processing

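Median, spike-in and quantile scaling, the deposited value table and leaving out the X-linked members moved none of the 2-fold counts of collagens and no median of the collagen classes beyond the repeat-spot spread of a difference (0.0883). Normexp background correction moved the count lower in triple null than in MafG-intact E10.5 embryos to 1, as did keeping probes above background on all 3 arrays, which leaves out Col19a1; 1.5-fold gave 12 lower and 1 higher. Between the MafG-intact stages the lower count was 0 under normexp, the all-array filter, the brightest probe, 3-fold and, chosen after seeing the data, with only probes above background on both arrays compared, and the higher count was 1 under each of those and 4 at 1.5-fold; triple null against MafG-intact E9.5 had 2 lower at 1.5-fold. Medians between the E10.5 groups were, under normexp, -0.15 over all collagens, -0.32 over fibrillar, -0.45 over the other chains and 0.030 over receptors; without a filter on dim probes, -0.28 over all collagens, -0.49 over the other chains and -0.36 over receptors; with the all-array filter or only probes above background on both arrays, -0.52 over fibrillar chains and -0.36 over receptors; and -0.52 over fibrillar chains with the brightest probe. Between the MafG-intact stages normexp gave 0.084 over all collagens, 0.10 over fibrillar chains and -0.014 over receptors, and no filter gave 0.14 over all collagens. Of the collagens at least 2-fold apart, those that turned sign were Col24a1 (0.41 with the all-array filter, with the brightest probe and with probes above background on both arrays) and Col25a1 (-0.029 under normexp), both between the MafG-intact stages. Smaller differences turned as well: under normexp, 29 of 34 collagens kept their sign between the MafG-intact stages, 32 of 34 between the E10.5 groups and 30 of 34 between triple null E10.5 and MafG-intact E9.5 embryos. The basement membrane medians stayed within the repeat-spot spread in all 10 alternatives. The normexp offset draws dim signals together by construction; for the rest the cause was not tested. No paired analysis was possible because each group has 1 array, and no replicate could be left out. The 2-fold calls of Col19a1, Col24a1 and Col25a1 rest on dim probes.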
